A study of Homo sapiens with 24 samples.

Results

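ASNS encodes asparagine synthetase, the enzyme that makes asparagine from aspartate with glutamine as the nitrogen donor. It was taken as the row with the gene symbol ASNS, 1 of 37411 genes in the deposited count table and 1 of the 17409 genes that passed the filter on low counts, and is described here in all 8 groups of the study. A cell that is short of asparagine, or of another amino acid, accumulates uncharged transfer RNAs, which activate the kinase GCN2 (EIF2AK4). GCN2 phosphorylates the initiation factor eIF2, which slows most translation but favours that of the transcription factor ATF4, and ASNS is among the best known targets of ATF4 in human cells. ISRIB is a small molecule that activates eIF2B, the factor that recharges eIF2, and so blunts this pathway, which is called the integrated stress response.

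PC9 is an established line of human non-small cell lung cancer, and its cells were kept in RPMI medium without or with asparagine, each with 200 nM ISRIB or with 0.004% DMSO as vehicle. The cells were harvested 6 h or 24 h after they had received these media. In every group, 500000 cells had been plated on a 10 cm dish and grown for 2 days. For every group the labels also list 10% fetal bovine serum. At both times the groups were ISRIB without asparagine, vehicle without asparagine, ISRIB with asparagine and vehicle with asparagine, with 3 libraries each and 24 in all, which the series' design text calls biological replicates. All groups came from the same line, so the data hold no second cell model. In these bulk libraries a lower value per cell and fewer cells that express the gene cannot be told apart.

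The libraries held 16737384 to 27495861 reads assigned to genes. All 6 epithelial markers were present in each library, the lowest of them being the cadherin CDH1 with at least 271 CPM (counts scaled to library size). Of the 7 markers of other cells, PTPRC, CD3E, VWF, COL3A1 and DCN stayed at or below 0.398 CPM, PECAM1 lay between 0.739 and 5.66 CPM and COL1A1 between 3.58 and 13.0 CPM. Libraries differed in how their counts followed transcript GC content, with log2 slopes of -0.31 to 0.18 for each 10 points of GC. The longest transcript of ASNS held 47.0% GC, the percentile 47.1 of 17326 genes. What these slopes did to single genes was not tested beyond the GC correction given with the other settings.

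ASNS (ENSG00000070669.16) lies on the minus strand at chr7:97852118-97872542 of GRCh38, in the annotation of GENCODE 29, with 4455 bases of exon. The gene start used by RefSeq lies inside the first exon of the longest GENCODE transcript, at position 97872408, and the stretch before it is the classical site of ASNS control by amino acids. It is shown because it holds both elements of that site. The 30 bases that begin 70 bases before the RefSeq start were read from the RefSeq promoter table (GRCh38.p14) at chr7:97872449-97872478 on the minus strand, and GENCODE 29 annotates them as untranslated sequence of exon 1. The first run of capitals marks the core of the element bound by C/EBP and ATF4 factors (TGATGNAA, searched on both strands), and the second marks the element known as NSRE-2 (GTTACA, searched on both strands).
ASNS: caTGATGAAActtcccgcacgcGTTACAgg
The first match ran from 68 to 61 bases and the second from 48 to 43 bases before the start, with 12 bases between them. Of 35116 RefSeq promoter windows of 300 bases, 3.62% held the first motif, 6.66% the second and 0.498% both. The other RefSeq window of ASNS, with a start at 97872165, held neither.

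Without asparagine and with vehicle, ASNS stood at 175, 151 and 173 CPM in the 3 libraries at 6 h, against 30.8, 26.7 and 29.5 CPM with asparagine and vehicle. With ISRIB at 6 h it was 28.2, 22.8 and 28.9 CPM without asparagine and 30.3, 25.8 and 26.0 CPM with asparagine. The 3 libraries without asparagine and with vehicle were thus far above the other 9 libraries of that time, which overlapped one another. At 24 h the values without asparagine and with vehicle were 57.4, 59.3 and 54.6 CPM, against 28.7, 27.3 and 25.6 CPM with asparagine and vehicle. With ISRIB at 24 h they were 18.0, 18.8 and 17.2 CPM without asparagine and 20.8, 21.0 and 23.7 CPM with asparagine. At 24 h the 4 groups did not overlap at all. The reads behind these values numbered 309 to 3388 per library, so that counting alone gave a coefficient of variation of 1.72% to 5.69%, while libraries of 1 group varied by 4.19% to 12.5%.

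**Figure D1:**
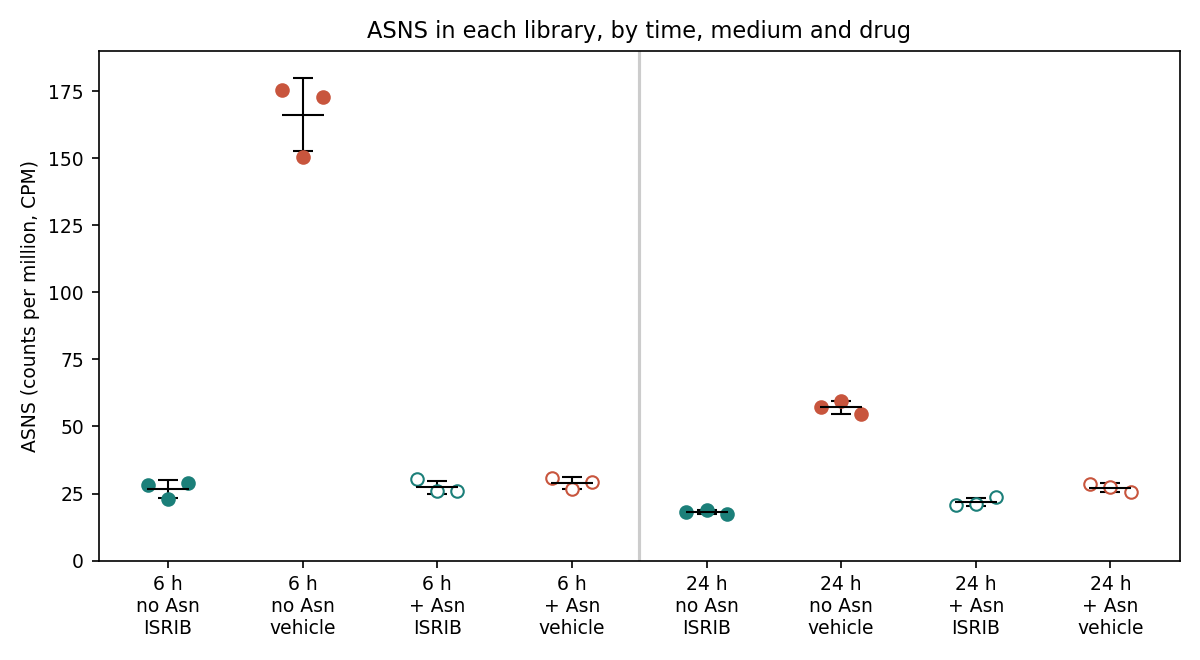
ASNS level (CPM, vertical axis) in each of the 24 libraries as points, by group, with the mean of each group as a horizontal line and the SD over its 3 libraries as the error bar. The 3 libraries without asparagine and with vehicle at 6 h, at 151 to 175 CPM, stand above all others, and those of the same treatment at 24 h come next.

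Ordered by mean level, the groups began with vehicle without asparagine at 6 h (166 ± 13.6 CPM, SD, n = 3) and at 24 h (57.1 ± 2.39 CPM). Then came vehicle with asparagine at 6 h (29.0 ± 2.11 CPM), ISRIB with asparagine at 6 h (27.4 ± 2.51 CPM), vehicle with asparagine at 24 h (27.2 ± 1.57 CPM) and ISRIB without asparagine at 6 h (26.6 ± 3.34 CPM). The lowest means were those of ISRIB with asparagine at 24 h (21.8 ± 1.60 CPM) and ISRIB without asparagine at 24 h (18.0 ± 0.774 CPM). The highest mean was 9.24 times the lowest, and 2.91 times the second. Of the 28 pairs of groups, 20 passed edgeR's quasi-likelihood test at an adjusted p of 0.05 and 21 did not overlap.

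Of the 7 steps between neighbours in that order, 3 passed. The difference between the first group and the second was 1.54 ± 0.10 on the log2 scale (SE), where 25.4% of all genes passed, and that between the second and the third 0.98 ± 0.10, where 27.1% passed. The difference between ISRIB without asparagine at 6 h and ISRIB with asparagine at 24 h was 0.29 ± 0.10, with an adjusted p of 0.041 by edgeR with Benjamini-Hochberg adjustment (24.6% of genes called), although their libraries overlapped. Among the 4 groups between 26.6 and 29.0 CPM, neighbours did not differ from each other beyond their spread (adjusted p 0.86 to 0.97, same test). The 2 lowest groups did not overlap, but their difference missed the threshold.

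Withdrawal of asparagine for 6 h raised ASNS 5.73-fold in vehicle-treated cells. The log2 change was 2.52 ± 0.10 (SE, n = 3 per group), with an adjusted p of 7.8e-13 in edgeR with Benjamini-Hochberg adjustment. It was the smallest p of the 17409 genes tested, of which 4.57% passed, and the second largest log2 rise among the 11560 genes with a mean of at least 5 CPM. In cells given ISRIB, the same withdrawal gave a log2 change of -0.04 ± 0.10 with a 95% interval of -0.25 to 0.17 (adjusted p 0.94, same test, 2.3% of genes called).

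Read the other way across the same 4 groups, ISRIB lowered ASNS 6.24-fold in cells without asparagine at 6 h. The log2 change was -2.64 ± 0.10 and the adjusted p 3.5e-13 by edgeR with Benjamini-Hochberg adjustment, again the smallest of all genes, of which 2.19% passed. With asparagine present, ISRIB gave a log2 change of -0.08 ± 0.10 (adjusted p 0.96, same test). In that comparison 0% of the genes passed the edgeR test and 0 genes passed DESeq2, while 203 had an unadjusted p under 0.05 in edgeR. The difference between the 2 ISRIB responses was -2.56 ± 0.14, with an adjusted p of 4.2e-10 in edgeR with Benjamini-Hochberg adjustment, in which 0.718% of genes passed. These comparisons share their groups, so the fall with ISRIB and the rise with withdrawal are not independent of each other.

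After 24 h, ASNS was the only gene of 17409 that passed for withdrawal in vehicle-treated cells, a share of 0.00574%. It rose 2.10-fold, with a log2 change of 1.07 ± 0.10 and an adjusted p of 8.4e-06 by edgeR with Benjamini-Hochberg adjustment. The log2 change was the largest of the 11560 genes with a mean of at least 5 CPM. At an unadjusted p under 0.05 the edgeR test listed 1271 genes in that comparison, DESeq2 called 9, and edgeR without the filter on low counts called 186. ASNS carried an adjusted p under 0.05 under each edgeR and limma setting tried, whereas DESeq2 with its default filter on the mean gave ASNS no adjusted p there.

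With ISRIB at 24 h, withdrawal did not raise ASNS. The log2 change was -0.28 ± 0.10, the groups did not overlap, and the adjusted p of 0.055 by edgeR with Benjamini-Hochberg adjustment lay close to the threshold, which it passed with the same sign under 7 other settings. In that comparison 22.1% of all genes passed, so a change of that size did not set ASNS apart. Within cells without asparagine, ISRIB lowered ASNS 3.17-fold at 24 h, with a log2 change of -1.67 ± 0.10 and an adjusted p of 5.7e-10 by the same edgeR test, the fifth smallest p of all genes, of which 21.7% passed.

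Cells with asparagine had slightly less ASNS with ISRIB than with vehicle at 24 h, and the 2 groups did not overlap. The log2 change was -0.32 ± 0.10 with an unadjusted p of 0.00449, but the adjusted p was 1 in edgeR with Benjamini-Hochberg adjustment. In that comparison 0% of genes passed edgeR and 0 passed DESeq2, with 248 genes at an unadjusted p under 0.05 in edgeR. The difference between the ISRIB responses without and with asparagine at 24 h was -1.35 ± 0.14, with an adjusted p of 7.2e-06 in the same edgeR test, in which 9.07% of genes passed.

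Between the times, ASNS was lower at 24 h than at 6 h in 3 of the 4 treatments. Without asparagine the log2 change was -0.57 ± 0.10 with ISRIB and -1.54 ± 0.10 with vehicle, with adjusted p of 0.00024 and 7.6e-10 by edgeR with Benjamini-Hochberg adjustment, in comparisons where 32.3% and 25.4% of genes passed. With asparagine it was -0.33 ± 0.10 with ISRIB (adjusted p 0.027, same test, 17.4% of genes called), a call that was lost under 4 other settings. With asparagine and vehicle the change of -0.09 ± 0.10 did not pass (adjusted p 0.58, same test, 18.8% called), and its sign turned when libraries were scaled by total counts alone.

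The rise with withdrawal in vehicle-treated cells was therefore smaller at 24 h, and the difference itself, -1.45 ± 0.14, had an adjusted p of 4.7e-06 in edgeR with Benjamini-Hochberg adjustment (1.22% of genes called). The ISRIB response without asparagine was also weaker at 24 h, by 0.98 ± 0.14 (adjusted p 0.00023, same test, 7.59% called). For withdrawal under ISRIB the difference of -0.24 ± 0.14 did not pass (adjusted p 0.38, same test, 2.67% called). For ISRIB with asparagine the difference of -0.24 ± 0.14 did not pass either (adjusted p 1, same test), and there 0% of genes passed edgeR and 0 passed DESeq2, with 134 at an unadjusted p under 0.05. The interaction of medium, drug and time was 1.21 ± 0.20 with an adjusted p of 0.0048 in the edgeR test (0.73% called).

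**Figure D2:**
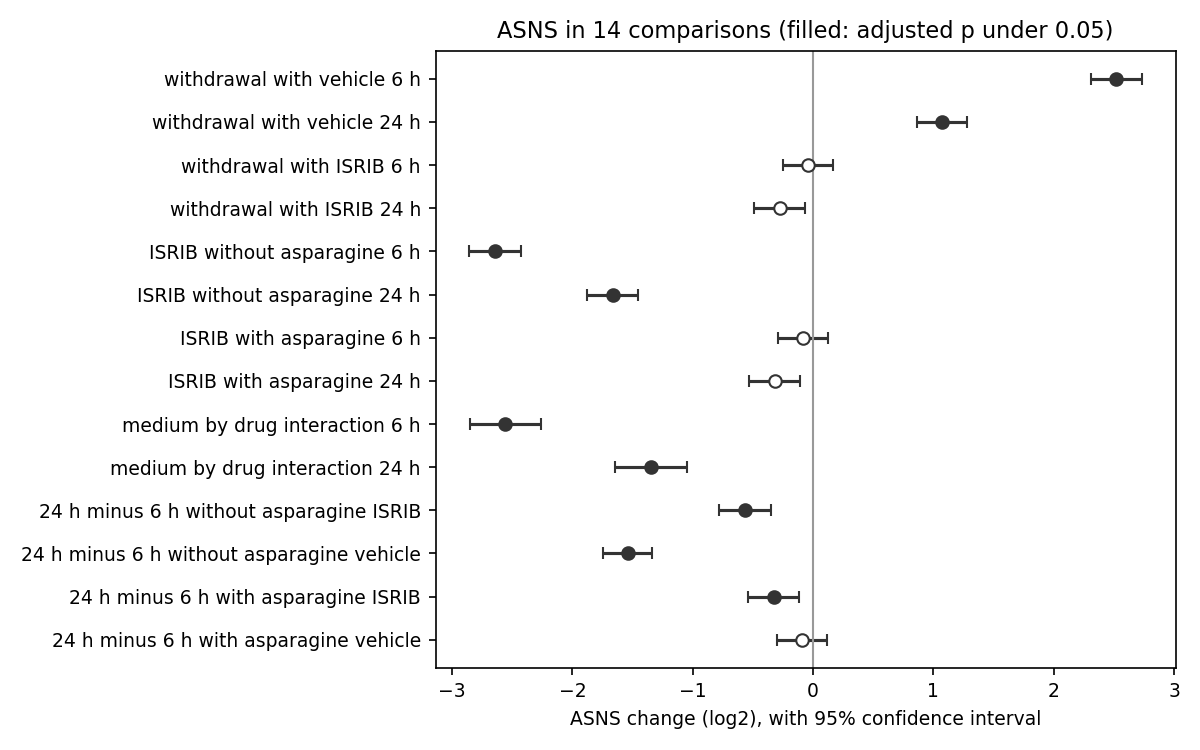
Log2 change of ASNS with its 95% confidence interval (horizontal axis) in 14 comparisons of medium, drug and time, which are listed down the page, with filled points where the adjusted p was under 0.05. Withdrawal with vehicle stands at 2.52 at 6 h and 1.07 at 24 h, ISRIB without asparagine at -2.64 and -1.67, and withdrawal with ISRIB near 0 at 6 h.

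ATF4, the transcription factor through which amino acid shortage acts on ASNS, is controlled largely at translation, so its messenger RNA is an incomplete measure of it. Its message stood at 1106 ± 71.7 CPM without asparagine and with vehicle at 6 h, against 626 ± 50.2 CPM with asparagine and vehicle (SD, n = 3). With ISRIB at 6 h it was 559 ± 89.5 CPM without asparagine and 632 ± 58.5 CPM with asparagine. ATF4 thus rose by 0.82 ± 0.10 on the log2 scale with withdrawal in vehicle, against 2.52 for ASNS, with an adjusted p of 8.7e-06 by edgeR with Benjamini-Hochberg adjustment.

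At 24 h the ATF4 message was 370 ± 4.54 CPM without asparagine and with vehicle, against 393 ± 6.45 CPM with asparagine and vehicle. Its log2 change was -0.09 ± 0.10 (adjusted p 0.76, edgeR with Benjamini-Hochberg adjustment), while that of ASNS was 1.07. With ISRIB at 24 h ATF4 was 293 ± 16.6 CPM without asparagine, against 390 ± 26.9 CPM with asparagine, a log2 change of -0.41 ± 0.10 (adjusted p 0.0047, same test).

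Per 1000 ATF4 reads, ASNS had 150 reads without asparagine and with vehicle at 6 h, against 46.3 with asparagine and vehicle. At 24 h the ratio was 154 without asparagine and with vehicle, against 69.3 with asparagine and vehicle. The ratios without asparagine and with vehicle were close at the 2 times, although the ASNS level was 2.91 times higher at 6 h. In the 4 groups with ISRIB it lay between 43.3 and 61.3. Over the 24 libraries, the Pearson correlation of log2 CPM between ASNS and ATF4 was 0.70, and it was 0.12 over the 21 libraries that leave out vehicle without asparagine at 6 h. These points share their libraries and scaling.

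**Figure D3:**
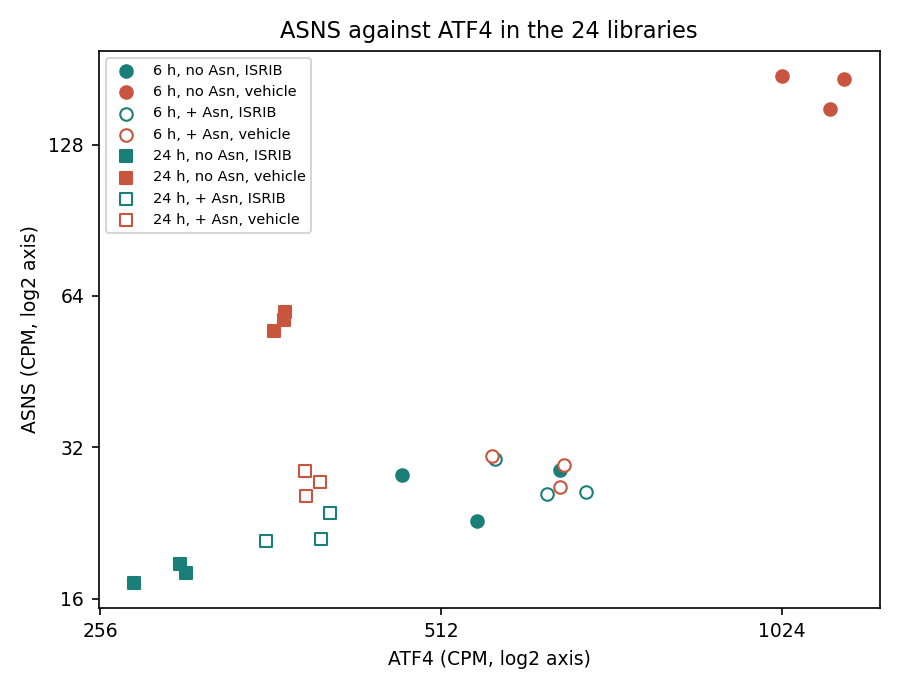
ASNS level against ATF4 level (CPM, both axes on a log2 scale), with 1 point per library and symbols by group. The 6 libraries without asparagine and with vehicle have the highest ASNS values, and the 3 of them at 24 h lie at 365 to 373 CPM of ATF4, below the 3 of vehicle with asparagine at that time (388 to 400.0 CPM).

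The other enzymes that make, use or charge asparagine and aspartate changed little at 6 h. Of 21 such genes 19 were tested, and for withdrawal with vehicle 2 rose and 0 fell by the edgeR test, where 3.31% of all genes rose and 1.26% fell. The median log2 change of these enzymes was 0.01, as over all genes. Both that rose were smaller changes than that of ASNS, namely GOT1, the cytosolic aspartate aminotransferase (0.69 ± 0.09), and NARS, the asparaginyl-tRNA synthetase (0.51 ± 0.12). ASNSD1, which carries an asparagine synthetase domain, gave 0.14 ± 0.14 (adjusted p 0.69, edgeR with Benjamini-Hochberg adjustment). The aspartate carrier SLC25A13 gave 0.01 ± 0.08, with an adjusted p of 0.98 in that test.

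Levels per kilobase of exon place ASNS beside these enzymes, with the exons of all annotated transcripts of a gene joined. The length of the transcripts expressed was not determined, so the order between genes holds on this scale only and could differ on another. Without asparagine and with vehicle at 6 h, ASNS reached 37.3 CPM per kb, against 6.51 with asparagine and vehicle. On the same scale and in the same order, NARS was at 59.7 and 41.9, ASNSD1 at 28.7 and 26.0 and GOT1 at 23.0 and 14.3. With vehicle at 6 h, ASNS was thus below ASNSD1 with asparagine and above it without, on this scale. ASRGL1, an asparaginase, stood at 1.44 and 1.63, and the asparaginase ASPG and the aspartoacylase ASPA had too few reads to be tested. In the other groups without asparagine ASNS was below ASNSD1 on this scale. These were vehicle at 24 h (12.8 against 26.3), ISRIB at 6 h (5.98 against 29.5) and ISRIB at 24 h (4.04 against 17.7).

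With ISRIB without asparagine at 6 h, 1 of the 19 enzymes fell, GOT1 (-0.68 ± 0.09), and 0 rose, where 1.64% of all genes fell and 0.551% rose. At 24 h 7 fell and 1 rose, where 11.6% fell and 10.1% rose. The fall at 24 h took in GLUL, the glutamine synthetase (-0.68 ± 0.08), ASNSD1 (-0.57 ± 0.14), ASS1, which joins aspartate to citrulline (-0.43 ± 0.10), and GOT2, the mitochondrial aspartate aminotransferase (-0.31 ± 0.06). DARS, the aspartyl-tRNA synthetase, and ADSS, which uses aspartate to make AMP, also fell. CAD, which uses aspartate and glutamine to make pyrimidines, rose by 0.51 ± 0.16. ASNS, at -1.67, lay below each of the 19 tested.

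Some carriers of asparagine, aspartate and glutamine rose with ASNS at 6 h. Of the 15 carriers 11 were tested, and with withdrawal in vehicle 4 rose and 0 fell, with a median log2 change of 0.60, where 3.31% of all genes rose and 1.26% fell. These were SLC1A4, a carrier of small neutral amino acids (1.74 ± 0.16), SLC38A2 and SLC38A1, sodium-coupled carriers of neutral amino acids (1.44 ± 0.13 and 0.70 ± 0.12), and SLC3A2, the heavy chain of several exchangers (0.72 ± 0.13). With ISRIB without asparagine at 6 h, 6 of the 11 fell and 0 rose, where 1.64% of all genes fell and 0.551% rose. The log2 changes were -1.87 ± 0.16 for SLC1A4, -1.03 ± 0.19 for SLC7A5, -0.97 ± 0.14 for SLC1A5 and -0.90 ± 0.13 for SLC38A2. SLC38A2 also rose with withdrawal under ISRIB at 6 h, by 0.51 ± 0.13 (adjusted p 0.04, edgeR with Benjamini-Hochberg adjustment), where 1.63% of all genes rose and ASNS did not pass.

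At 24 h, ISRIB without asparagine lowered 2 of the 11 carriers and raised 1, beside 11.6% and 10.1% of all genes, so the share of carriers called was near that of all genes. The log2 changes were -1.29 ± 0.17 for SLC1A1 and -1.25 ± 0.12 for SLC1A3, both carriers of glutamate and aspartate, and 0.63 ± 0.13 for SLC3A2. SLC38A2, which had fallen with ASNS in the same comparison at 6 h, gave -0.11 ± 0.13 there (adjusted p 0.58, edgeR with Benjamini-Hochberg adjustment).

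Along the signal chain from the eIF2 kinases to ASNS, the messages of some members changed. Message levels alone do not locate a change along this chain. All 23 genes were tested, and for withdrawal with vehicle at 6 h 7 rose and 1 fell, with a median of 0.06, where 3.31% of all genes rose and 1.26% fell. The sum of both was between 5 and 9 when single libraries were left out. The pseudokinase TRIB3, which inhibits ATF4 (1.94 ± 0.13), ATF3 (1.52 ± 0.23) and DDIT3 (1.50 ± 0.15), both bZIP factors, and CEBPG, a partner of ATF4 (0.89 ± 0.10), rose with ATF4 itself, as did NUPR1 (1.40 ± 0.39) and PPP1R15A, which directs a phosphatase to eIF2 (0.81 ± 0.23). ATF5, a relative of ATF4, fell by 0.39 ± 0.11. The kinase EIF2AK4 gave -0.08 ± 0.08 and the eIF2B subunit EIF2B1 -0.07 ± 0.08, with adjusted p of 0.68 and 0.74 by edgeR with Benjamini-Hochberg adjustment.

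With ISRIB without asparagine, 5 of the 23 fell and 0 rose at 6 h, where 1.64% of all genes fell and 0.551% rose. Among the 5 were TRIB3 (-2.27 ± 0.13), ATF3 (-1.51 ± 0.23) and CEBPG (-0.98 ± 0.10). At 24 h 6 fell and 5 rose. EIF2AK1, the kinase that senses haem shortage (-0.64 ± 0.06), EIF2AK4 (-0.42 ± 0.08), IMPACT, a GCN2 inhibitor (-0.65 ± 0.11), and CEBPG (-0.41 ± 0.10) fell. JUN (1.14 ± 0.20), PPP1R15A (0.89 ± 0.24), DDIT3 (0.60 ± 0.16) and the eIF2B subunit EIF2B4 (0.55 ± 0.11) rose. At 24 h DDIT3 and PPP1R15A thus moved opposite to ASNS, and the 5 that rose and 6 that fell stand beside 10.1% and 11.6% of all genes.

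Among the lists, the other ATF4 target genes moved most like ASNS at 6 h. This list of 34 genes shares 5 with the signal chain and 3 with the carriers, and 33 were tested. Its members, like those of the other lists, were chosen with earlier results of these data known. The shares given beside those of all genes are therefore descriptions and not tests. For withdrawal with vehicle 30 rose and 0 fell, with a median of 1.16, where 3.31% of all genes rose and 1.26% fell. The smallest p belonged to TRIB3, the lipoprotein receptor VLDLR (2.58 ± 0.20), the peptide hormone ADM2 (3.52 ± 0.29), the glycyl-tRNA synthetase GARS (1.38 ± 0.12) and the seryl-tRNA synthetase SARS (0.68 ± 0.06). CHAC1, which degrades glutathione (3.11 ± 0.37), DDIT4, an inhibitor of mTORC1 (2.55 ± 0.27), and FGF21, with 72 reads in all libraries together, also lay above ASNS, and they are named because their changes were larger. Between them and VLDLR and ADM2, 5 of the 33 lay above ASNS. CEBPB, SLC7A5 and PYCR1 did not pass, with adjusted p of 0.68, 0.09 and 0.89 by edgeR with Benjamini-Hochberg adjustment.

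With ISRIB without asparagine at 6 h 30 of the 33 fell and 0 rose, with a median of -1.19, where 1.64% of all genes fell and 0.551% rose. Of these targets 5 lay below ASNS. The interaction at 6 h was past the threshold and negative in 25 of the 33, where 0.661% of all genes were negative.

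At 24 h, withdrawal with vehicle called ASNS alone, 0.00574% of all genes, so a count of 0 does not set a list apart. For withdrawal with vehicle, 0 of the 33 other targets, 0 of the 23 genes of the signal chain, 0 of the 19 enzymes and 0 of the 11 carriers passed in edgeR, nor did any in DESeq2. At an unadjusted p under 0.05 the edgeR counts were 3, 2, 1 and 0, beside 1271 of all 17409 genes tested. The median log2 change of the other targets was 0.01, as over all genes, and ASNS lay above each tested member of the 4 lists. TRIB3 gave -0.11 ± 0.13, SLC1A4 0.10 ± 0.16, CEBPG 0.09 ± 0.10 and DDIT3 0.04 ± 0.16, with adjusted p of 0.77, 0.83, 0.75 and 0.94 by edgeR with Benjamini-Hochberg adjustment.

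With ISRIB without asparagine at 24 h, 10 of the 33 other targets fell and 2 rose, with a median of -0.20, where 11.6% of all genes fell and 10.1% rose. The cystine carrier SLC7A11 (-1.09 ± 0.15), XPOT, the exporter of transfer RNAs (-0.89 ± 0.12), PSAT1, an enzyme of serine synthesis (-0.87 ± 0.14), and STC2, a secreted glycoprotein (-0.82 ± 0.15), fell. SLC3A2 and DDIT3 rose. NUPR1, with a log2 change of -2.10 ± 0.55 and at most 28 reads in a library, was the 1 member below ASNS. Of the 33, 22 had a withdrawal response that was lower at 24 h than at 6 h beyond the threshold, where 1.03% of all genes did.

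**Figure D4:**
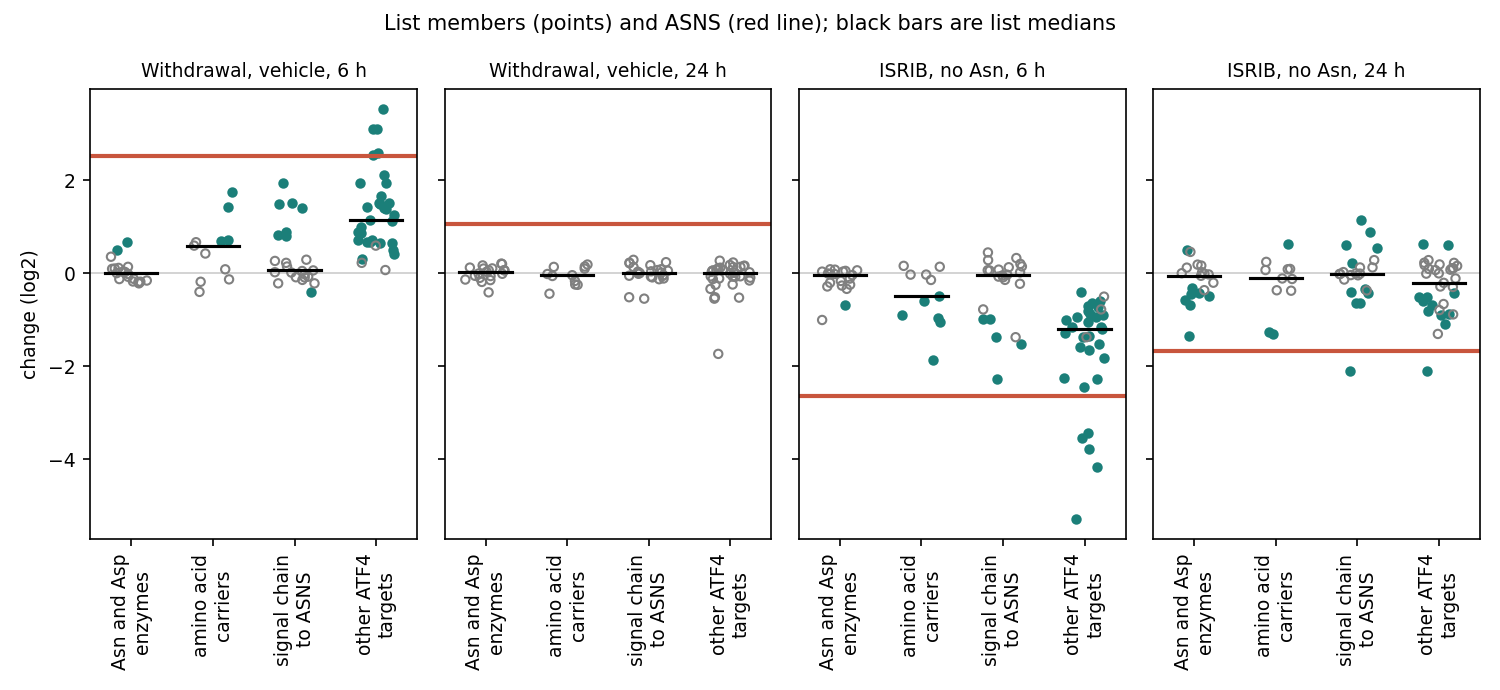
Log2 change (vertical axis) of each tested member of the 4 gene lists, as points that are filled where the adjusted p was under 0.05, with list medians as black bars and ASNS as a red line, in withdrawal with vehicle and in ISRIB without asparagine at 6 h and 24 h. At 6 h ASNS lies among the larger changes of the other ATF4 target genes, and for withdrawal at 24 h it lies at 1.07, above all other members.

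Promoter windows of the list genes were searched for the element core that ASNS holds, in the same RefSeq table. It was found in 7 of the 25 other ATF4 target genes with a window, 5 of 13 carriers, 3 of 21 genes of the signal chain and 2 of 17 enzymes, and in 4.46% of all 27305 symbols. Of the 10 genes whose level followed that of ASNS most closely, which are described further on, 0 of the 6 with a window held it. The matches below are those of all genes named above that rose with withdrawal in vehicle at 6 h, read on the strand of the match in GRCh38.p14. The motif is in capitals with 8 bases on each side, or fewer where the window of SLC3A2 ended.
SLC1A4 (chr2:64989384-64989407, minus strand): gctggagaTGATGCAAacgggagc
CEBPG (chr19:33374063-33374086, plus strand): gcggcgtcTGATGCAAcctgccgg
CHAC1 (chr15:40953254-40953277, minus strand): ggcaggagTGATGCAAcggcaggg
GARS, named GARS1 in RefSeq (chr7:30594837-30594860, minus strand): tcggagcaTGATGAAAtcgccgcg
ATF3 (chr1:212565208-212565231, plus strand): ggtcaggaTGATGGAAggctgtca
GOT1 (chr10:99430807-99430830, plus strand): gccgagaaTGATGCAAccaatgca
NARS, named NARS1 in RefSeq (chr18:57621807-57621830, minus strand): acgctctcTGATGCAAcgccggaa
SLC38A1 (chr12:46266505-46266528, minus strand): gacccgaaTGATGAAAagggatca
SLC3A2 (chr11:62881728-62881748, minus strand): ggagcTGATGTAAggagtcct
FGF21 (chr19:48755462-48755485, minus strand): ctcctcccTGATGCAAtcctggtg
GARS and SLC38A1 carry the same 8 letters as ASNS, as does SLC7A1, another ATF4 target of the list, and the other genes shown differ from it in the free position of the motif. The core was also found for SLC1A3, SLC1A5 and PPP1R15B, which did not pass for withdrawal with vehicle at 6 h. Their adjusted p were 0.77, 0.098 and 0.15 by edgeR with Benjamini-Hochberg adjustment. No match was found for TRIB3, DDIT4 or SLC38A2, which rose, and not every list gene had a window. A match of these letters is a description of the window and does not show that a factor binds there.

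The genes whose level followed that of ASNS most closely over the 24 libraries were found among 11559 genes with a mean of at least 5 CPM. PSAT1P3 (Pearson r of log2 CPM 0.93), PSAT1 (0.92) and PSAT1P4 (0.88) share near-identical sequence, so reads may be split between them and the values of the 2 pseudogenes are uncertain. The other 7 were ETV5, an ETS transcription factor (0.92), the cytokine TNFSF15 (0.91), UHRF1BP1 (0.91), PHGDH, the first enzyme of serine synthesis (0.90), the adaptor GRB10 (0.89), PCK2, the mitochondrial PEP carboxykinase (0.89), and SYNE3, a nuclear envelope protein (0.88). The median r over all genes was 0.02, that of the other ATF4 targets 0.73, of the carriers 0.57, of the enzymes 0.22 and of the signal chain 0.14.

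The level of HS6ST1, a heparan sulfate sulfotransferase, ran most opposite (-0.78), followed by the Wnt receptor FZD5 (-0.75), TMEM138 (-0.73), TOR1B (-0.70) and DNAJC14 (-0.70). The likeness rested on 1 group. Without the 3 libraries of vehicle without asparagine at 6 h, 0 of the 10 genes were again among the 10 most alike, with r of 0.41 to 0.67 for these genes. PHGDH kept the highest of these values, at 0.67. At 24 h, withdrawal with vehicle gave the 10 genes log2 changes of -0.08 to 0.27 and adjusted p of at least 0.67 in edgeR with Benjamini-Hochberg adjustment, against 1.07 for ASNS.

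**Figure D5:**
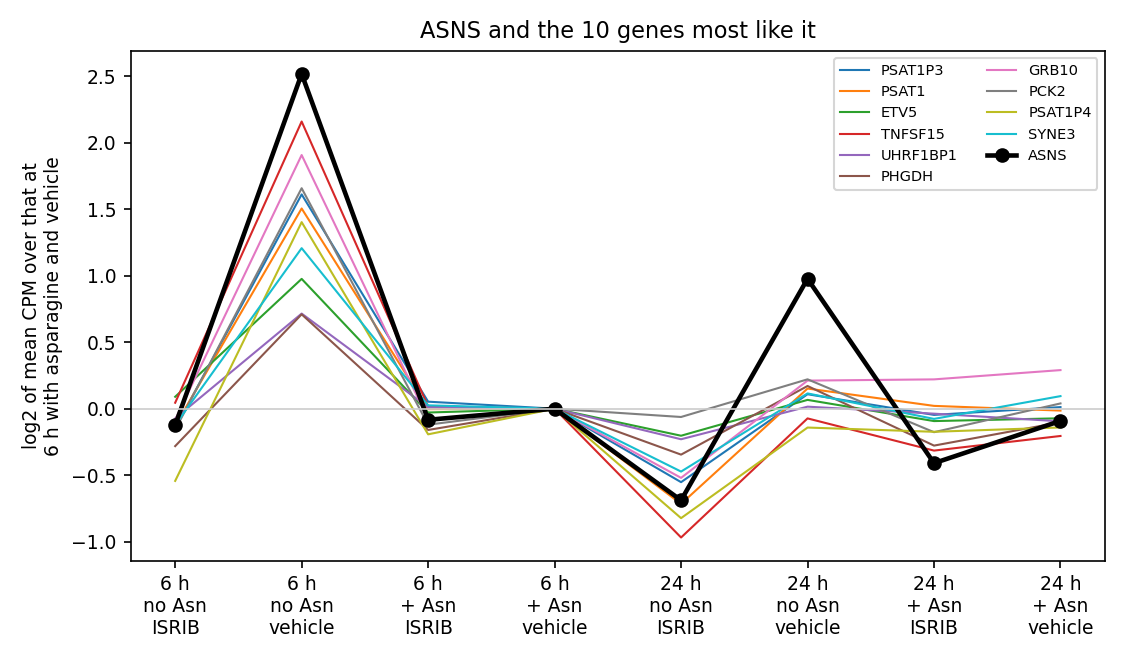
Mean level of ASNS (black) and of the 10 genes most like it in the 8 groups, as log2 of the mean CPM over that with asparagine and vehicle at 6 h (vertical axis). All 10 genes peak with ASNS without asparagine and with vehicle at 6 h, while at 24 h their withdrawal changes with vehicle lie between -0.08 and 0.27, against 1.07 for ASNS.

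The tested genes around ASNS did not pass for withdrawal at 6 h. Of the protein-coding neighbours within 500 kb that were tested, BAIAP2L1 gave 0.10 ± 0.07, BRI3 -0.22 ± 0.22, LMTK2 -0.15 ± 0.07 and TECPR1 -0.05 ± 0.20 for withdrawal with vehicle at 6 h, with the smallest adjusted p at 0.28 by edgeR with Benjamini-Hochberg adjustment. LMTK2, a kinase, rose by 0.22 ± 0.07 with ISRIB without asparagine at 24 h (adjusted p 0.027, same test). In that comparison 10.1% of all genes rose, and BAIAP2L1 (0.06 ± 0.07), BRI3 (0.34 ± 0.22) and TECPR1 (0.48 ± 0.19) did not pass. BHLHA15, with at most 8 reads in a library, was not tested. The pseudogene ENSG00000226744.1, which lies within ASNS on the other strand, had at most 1 read in a library, and the processed pseudogene ASNSP4 had 3 reads in all. GENCODE 29 also places a long non-coding gene, ENSG00000284707.1, over ASNS on the same strand. It is not among the genes counted, so it was not analysed. Whether its exons overlap those of ASNS was not examined, and reads from any shared exon could not be told apart.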

How the data were processed

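RNA was sequenced from 24 libraries of PC9 cells in 8 groups of 3. The authors used Bowtie2, featureCounts, DESeq2 and the build hg38, per the submitters' processing notes, and versions, roles and strandedness are not given in the sources used here. Per gene, the count table that the authors deposited holds whole reads, and a second deposited table holds log2 values after a variance-stabilizing transformation. Coordinates came from GENCODE 29, and 36620 of the 37411 identifiers matched it.

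In edgeR 4.0.16 (R 4.3.3), filterByExpr set aside 0.0751% to 0.0980% of a library's reads, and TMM factors ran from 0.902 to 1.08. All 24 libraries entered 1 model of 8 group means, and 19 contrasts, and for the order of levels all 28 pairs of groups, were tested over 17409 genes by its quasi-likelihood F test, with p-values adjusted after Benjamini and Hochberg. CPM are scaled by the same factors, with the SD of 3 libraries. The series' design text calls the replicates biological. The p-values set a difference against the spread between these samples, estimated per gene over all 8 groups with information shared across genes. The coefficient of variation from counting covers counting error only. The scripts were tested on simulated data.

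Alternatives were RLE and upper-quartile factors, total counts alone, no filter, a filter of 5 CPM in 3 libraries, a replicate block, a GC correction by a robust spline per library with and without that block, leaving out the 3 libraries of most negative GC slope, the groups compared alone, DESeq2 1.42.0, limma 3.58.1 on the deposited log2 table, and leaving out each library in turn. DESeq2 without its filter on the mean was added after seeing that DESeq2 gave ASNS no adjusted p for withdrawal with vehicle at 24 h.

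Replicate numbers were checked as pairs by correlating each library's deviations from its group mean. Every pair exceeded 0.1 in 3 of 12 comparisons of 2 groups, namely withdrawal with vehicle, where the pairs correlated at 0.597 to 0.678 after 6 h and at 0.258 to 0.632 after 24 h, and ISRIB without asparagine at 6 h (0.574 to 0.777). What the numbers stand for is not in the labels, and in these comparisons the block did not change the call on ASNS.

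The members and lists were chosen with earlier results of these data known. The genes named were ASNS and ATF4 in every group, genes that overlap ASNS or lie within 500 kb, the 10 most alike and 5 most opposite in Pearson r of log2 CPM, and, for each list and comparison, the first 8 at most by adjusted p among those past 0.05 and the last 3 at most. Promoter windows run from 250 bases before to 50 after the RefSeq start. Values of 1 gene of the enzyme list are not reported here.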

Additional observations from a re-analysis of the deposited data

Results flagged for a closer look

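Differences between responses of ASNS passed edgeR with Benjamini-Hochberg adjustment in 5 comparisons and mark where 2 groups answered the same contrast unequally. The ISRIB response without asparagine differed from that with asparagine by -2.56 on the log2 scale at 6 h (adjusted p 4.2e-10) and by -1.35 at 24 h (adjusted p 7.2e-06). Without asparagine, all 3 ISRIB libraries lay below all 3 vehicle libraries at both times. With asparagine, ISRIB and vehicle libraries overlapped at 6 h, while at 24 h the ISRIB libraries were again lower without overlap.

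The withdrawal response with vehicle was smaller at 24 h than at 6 h, with a difference of -1.45 (adjusted p 4.7e-06, same edgeR test), and the ISRIB response without asparagine differed between the times by 0.98 (adjusted p 0.00023). The interaction of medium, drug and time was 1.21 (adjusted p 0.0048). These 5 values share groups and are not independent of one another, and 24 h and 6 h libraries differ in many other genes, for instance in 25.4% of them without asparagine and with vehicle. The part of those other changes in these differences was not tested.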

How the results depend on the processing

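Of 702 values of the 19 tests on ASNS under other settings, 682 kept their direction and their side of the threshold. Withdrawal with ISRIB at 24 h passed with RLE factors (-0.28, adjusted p 0.049), the filter of 5 CPM (-0.26, 0.04), the replicate block (-0.28, 0.039), the GC correction (-0.25, 0.026), both together (-0.25, 0.015), DESeq2 (-0.28, 0.04) and limma (-0.27, 0.049). It ran from -0.31 to -0.22 with single libraries left out and passed without replicate 1 of ISRIB with asparagine or replicates 2 or 3 of ISRIB without it, all at 6 h. The fall between the times with ISRIB and asparagine missed the threshold with upper-quartile factors (-0.26, 0.057), total counts alone (-0.24, 0.092), no filter (-0.33, 0.15) and the groups alone (-0.32, 0.19). It ran from -0.39 to -0.25 with single libraries left out and was lost without replicate 1 of that treatment at 6 h or replicates 1 or 2 at 24 h (adjusted p up to 0.11). With asparagine and vehicle the change between the times was 0.0057 with total counts alone, and withdrawal with ISRIB at 6 h ran from -0.10 to 0.05 with single libraries left out, positive without replicate 1 of ISRIB with asparagine (0.038) or replicate 2 of ISRIB without it (0.054). The replicate block changed no other call on ASNS, and 17 of the 24 libraries correlated best with their own number.

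Without the filter, 1 gene of the signal chain and 1 other ATF4 target passed for withdrawal with vehicle at 24 h. With the GC correction the enzymes called at 6 h numbered 4 for withdrawal and 2 for ISRIB without asparagine, and the genes of the signal chain 9 for ISRIB without asparagine. With the block added these were 5, 4 and 11, and the carriers for ISRIB without asparagine at 24 h numbered 5. Without the 3 libraries whose GC slope was lowest, the enzymes numbered 3 for ISRIB without asparagine at 6 h and the carriers 5 at 24 h. With single libraries left out, withdrawal with vehicle at 6 h called 1 to 2 enzymes (1 without replicate 1 or 3 of vehicle without asparagine or replicate 2 of vehicle with it) and 5 to 9 genes of the signal chain (5 without 7 of the libraries, among them each of vehicle with asparagine at 6 h), and ISRIB without asparagine at 6 h 1 to 2 enzymes (2 without its replicate 3). Of the 10 most alike genes 4 stayed with Spearman's rho, 0 without vehicle without asparagine at 6 h, and 6 to 10 with single libraries left out (6 without replicate 2 of vehicle without asparagine at 24 h).

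Over other settings and single libraries left out, the genes called numbered 479 to 2194 for withdrawal with vehicle at 6 h (795 as reported) and 1 to 186 at 24 h (1), 0 to 1789 (400) and 1544 to 6506 (3855) for withdrawal with ISRIB, 141 to 1397 (381) and 2073 to 6456 (3777) for ISRIB without asparagine, and 72 to 390 (125) and 806 to 3638 (1579) for the interaction, at 6 h and 24 h each. With ISRIB and asparagine they reached 7 and 8 without the filter (0 as reported). Between the times, they numbered 155 to 1010 for withdrawal with vehicle (213), 53 to 1899 for withdrawal with ISRIB (464, and 223 without replicate 1 of ISRIB without asparagine at 24 h), 674 to 3455 for ISRIB without asparagine (1322) and 70 to 1225 for medium, drug and time (127). For the treatments themselves they numbered 3365 to 7895 (5622) for ISRIB and 3074 to 7154 (4423) for vehicle without asparagine, and 967 to 5784 (3024) for ISRIB and 2109 to 6063 (3275) for vehicle with it.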
